A study of Mus musculus with 7 samples.

Results

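The matrix metalloproteinases, the ADAM and ADAMTS proteases and their TIMP inhibitors were followed in mouse plantaris, a muscle of the lower hind limb, after a sham operation or after overload lasting 1 week. They were taken by symbol: Mmp, Adam or Adamts followed by a number, and Timp1 to Timp4. The rule found 60 of the 18193 genes with a named probe set, namely 18 Mmp, 23 Adam, 15 Adamts and 4 Timp genes. Relatives with other symbol patterns, such as Adamdec1 and the Adamtsl genes, were outside it.

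All mice were 4 months old and of the Pax7-DTA genotype, from the parental strains Pax7-CreER and Rosa26-DTA. In such mice the Pax7 promoter drives a tamoxifen-activated Cre, which switches on diphtheria toxin A in satellite cells, the stem cells of muscle. Vehicle was the control for tamoxifen, and every group carried both alleles, so the drug itself and the loss of cells cannot be told apart. The groups were vehicle sham (1 array, male), tamoxifen sham (1 array, male), vehicle overload (2 arrays, replicate 1 female and replicate 2 male) and tamoxifen overload (3 arrays, replicates 1 and 2 male and replicate 3 female). Titles read as single mice while the design text speaks of RNA pooled over 11 animals. The number of mice behind an array is therefore uncertain. With 1 array in each sham group, p-values hold no measure of the spread between sham arrays. They use the spread between overload arrays left after a sex term, weighed with that of all genes of like intensity.

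Values are log2(signal + 1) of the gene's brightest probe set, and they can be compared between arrays but not between genes. Background was set at 5.82, the 95th percentile of the mean values of 74 smell, pheromone and taste receptor genes. All 8 adult fibre genes checked, among them Ckm and Acta1, lay above it. Pax7 itself was at 6.55 in vehicle sham and 5.40 in tamoxifen sham, at 8.10 and 8.45 in vehicle overload, and at 5.88, 3.46 and 6.92 in tamoxifen overload replicates 1, 2 and 3. Its 3 tamoxifen overload values all lay below both vehicle overload values, by 2.67 on the fitted log2 scale (limma adjusted p = 0.399). A bulk array cannot tell fewer cells of a type from less RNA per cell.

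Matrix metalloproteinases are zinc enzymes that cut collagens and other matrix proteins, and most are made as inactive precursors. ADAM proteases sit in the cell membrane and release the outer parts of other membrane proteins, whereas ADAMTS proteases are secreted and cut proteoglycans and procollagens. TIMPs bind the active site of these enzymes, and TIMP2 also helps the membrane enzyme MMP14 to activate MMP2. In muscle the matrix around fibres is rebuilt when load rises, and these families are known for taking part in that.

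Of the Mmp genes, 9 lie in 1 run on chromosome 9, in the order Mmp13, Mmp12, Mmp1b, Mmp3, Mmp1a, Mmp10, Mmp8, Mmp20 and Mmp7, with Mmp27, not measured here, inside it. The promoters of 5 of them are shown because neighbours that hold the same motif letters differed in whether they rose, and Mmp8 is shown as 1 without them. The stretches run from 110 bases before to 10 bases after the start of the gene (RefSeq, GRCm38.p6, 5′ to 3′, all on the plus strand). They are chr9:7272404-7272523 for Mmp13, chr9:7347264-7347383 for Mmp12, chr9:7445712-7445831 for Mmp3, chr9:7502232-7502351 for Mmp10 and chr9:7558319-7558438 for Mmp8. Capitals mark the letters TGANTCA, the AP-1 motif; RefSeq gives 2 windows for Mmp12, and the 1 with these letters is shown.
Mmp13: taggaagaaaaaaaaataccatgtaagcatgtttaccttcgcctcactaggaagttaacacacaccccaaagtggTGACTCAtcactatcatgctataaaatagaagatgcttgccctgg
Mmp12: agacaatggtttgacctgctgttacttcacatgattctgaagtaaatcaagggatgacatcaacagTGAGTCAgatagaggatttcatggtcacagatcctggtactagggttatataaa
Mmp3: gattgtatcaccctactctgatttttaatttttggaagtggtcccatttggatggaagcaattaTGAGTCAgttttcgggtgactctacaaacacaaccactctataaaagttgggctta
Mmp10: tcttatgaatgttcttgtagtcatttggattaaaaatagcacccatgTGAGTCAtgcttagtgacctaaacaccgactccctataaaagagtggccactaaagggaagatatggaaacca
Mmp8: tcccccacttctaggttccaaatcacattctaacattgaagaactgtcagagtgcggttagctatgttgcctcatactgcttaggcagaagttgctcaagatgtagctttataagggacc

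The AP-1 letters stood 35 bases before the start in Mmp13, 44 in Mmp12, 46 in Mmp3 and 63 in Mmp10, and these letters were not in the Mmp8 stretch. In the full RefSeq windows of 250 bases before to 50 after the start, read on both strands, 10 of the 33 family genes with a window held TGANTCA, against 7.54% of 14452 tested genes. Of those 10, 8 belong to the run on chromosome 9. Among the genes that rose with overload, 4 of the 15 with a window held it. In the run itself Mmp13, Mmp12 and Mmp3 rose, and the other 6 genes were at or below background on every array, among them Mmp10, whose values ran from 3.09 to 4.85. A match of letters is a description and not a site of binding. The letters AGGAAG (PEA3) were in a window of 16 of the 33 genes, against 37.6% of tested genes, and TGTGGT (RUNX) of 8, against 16.1%.

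Overload against sham was tested with both treatments averaged, in limma with Benjamini-Hochberg adjustment over all genes. Of the 60 genes 21 rose and 2 fell, which is 35.0% and 3.33%. Over all 18193 genes 14.7% rose and 8.16% fell, 22.9% in all. The 21 comprised 8 Mmp, 5 Adam, 6 Adamts and 2 Timp genes, with fitted differences from 0.60 to 6.45, and both that fell were Timp genes. The median difference was 1.16 for Mmp, 0.21 for Adam, 0.73 for Adamts and 0.13 for Timp genes, beside 0.07 for all genes. When the variance model had no intensity trend, 0 of the 60 genes and 0 of 18193 passed the limma test. With both the trend and the sex term left out, 18 of the 60 rose and 0 fell, beside 2130 and 747 of the 18193 genes.

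In every one of the 21 genes that rose, each overload array lay above both sham arrays. The genes were called on these same arrays, so this is no separate support for the calls. That separation held for 25 of the 60 genes (41.7%), and for 23.1% of all genes. The reverse, all overload arrays below sham, was seen in 4 of the 60 genes and in 18.3% of all genes. In all, 27 of the 60 genes were above background on all 7 arrays, 17 on some and 16 on none. Those 16 were 6 Mmp, 9 Adam and 1 Adamts gene, and 0 of them passed the test. Over all genes above background on at least 1 array, 18.4% rose and 10.3% fell; of the 44 such family genes, 21 rose and 2 fell.

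**Figure D1:**
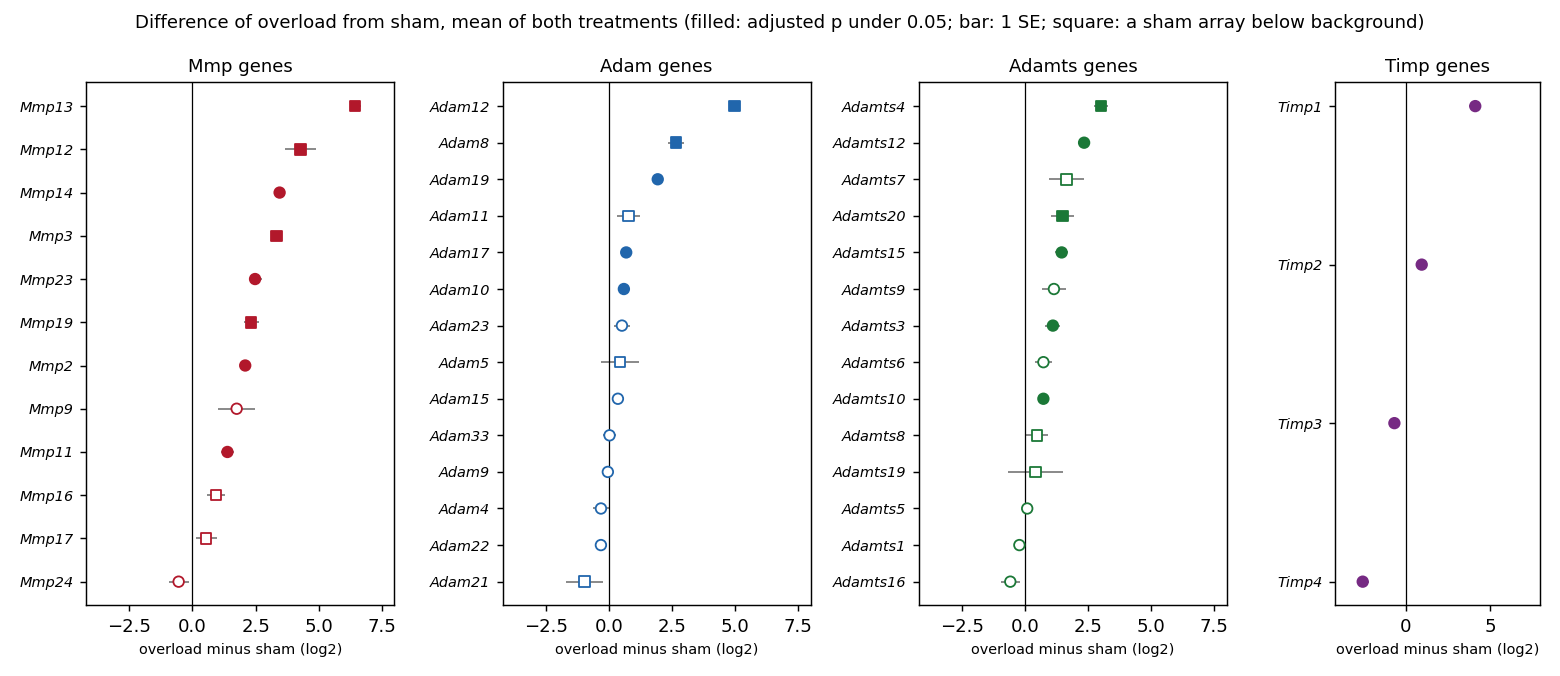
Overload minus sham difference (log2) with its standard error for the 44 family genes above background on at least 1 array, grouped by family, with filled points for genes past the limma threshold. Squares mark genes with a sham array below background, whose position is a fitted value and not a measured size; among the circles Timp1 (4.12) and Mmp14 (3.45) lie far right and Timp4 (-2.57) far left.

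Among the collagenases, Mmp13, which cuts fibrillar collagen, was at 3.44 in vehicle sham and 3.10 in tamoxifen sham. It was at 9.16 and 8.83 in vehicle overload and at 10.78, 10.51 and 11.22 in tamoxifen overload. Both sham values were below background, and every overload value was far above it. The fitted difference was 6.45 ± 0.22 (SE; limma adjusted p = 5.94e-06). Since a sham value below background is no level, the rise is given as at least 17.1-fold, the mean of the 2 overload group means against background. Mmp8, the collagenase of neutrophils, stayed below background on every array.

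The stromelysin Mmp3, which cuts many matrix proteins and activates other metalloproteinases, was at 4.81 in vehicle sham and 7.05 in tamoxifen sham. It was at 9.25 and 9.02 in vehicle overload and at 9.29, 9.57 and 9.08 in tamoxifen overload. The sham arrays stood 2.24 apart while the overload arrays stood together. The fitted difference was 3.34 ± 0.23 (limma adjusted p = 0.000133), and since vehicle sham was below background the rise is given as at least 6.93-fold. Mmp11, a stromelysin of stromal cells, rose by 1.39 ± 0.27 (limma adjusted p = 0.00855), from 6.35 and 6.98 to between 7.27 and 8.61, and missed the threshold without the tamoxifen sham array or without vehicle overload replicate 2.

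The gelatinase Mmp2, which cuts denatured collagen and basement membrane collagen, was at 10.45 and 10.99 in the vehicle and tamoxifen sham arrays. It reached 12.78 and 12.44 in vehicle overload and 13.16, 13.10 and 13.11 in tamoxifen overload. It rose by 2.09 ± 0.14, or 4.26-fold (limma adjusted p = 0.000133). Mmp9, the other gelatinase, known from neutrophils and macrophages, was at 6.47 and 6.94 in sham, 5.94 and 6.72 in vehicle overload, and 8.68, 11.07 and 6.84 in tamoxifen overload. Its groups overlapped, and tamoxifen overload replicate 2 was by far the highest. The difference of 1.75 ± 0.72 did not pass (limma adjusted p = 0.127), whereas without tamoxifen overload replicate 1 it was 2.19 (adjusted p = 0.00657).

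Mmp14, the membrane enzyme that activates MMP2, was at 8.82 in vehicle sham and 9.43 in tamoxifen sham. It was at 12.17 and 12.15 in vehicle overload and at 12.75, 13.25 and 12.96 in tamoxifen overload. All 5 overload values lay well above both sham values, and the rise was 3.45 ± 0.17, or 11.0-fold (limma adjusted p = 4.26e-05). Of the other membrane types, Mmp16 (0.94), Mmp17 (0.55) and Mmp24 (-0.55) did not pass. For Mmp16 the brightest probe set missed the threshold (adjusted p = 0.104). Of its 3 other probe sets 2 passed it, both below background in sham, with rises of at least 2.11-fold and at least 1.43-fold, and 1 was below background on every array.

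The macrophage elastase Mmp12 was at 4.48 and 2.74 in sham, 5.26 and 7.67 in vehicle overload, and 7.14, 9.15 and 6.0 in tamoxifen overload. Its overload arrays spread widely, and vehicle overload replicate 1 stayed below background. It rose at least 2.19-fold against background, with a fitted difference of 4.28 ± 0.61 (limma adjusted p = 0.0024), and missed the threshold without the tamoxifen sham array (adjusted p = 0.0549). Mmp19, an enzyme of basement membranes, rose from 5.28 and 5.56 to between 7.37 and 8.01, at least 3.62-fold (limma adjusted p = 0.00139). Mmp23 went from 6.5 and 7.13 to 9.14 and 8.44 in vehicle overload and 9.76, 10.29 and 9.87 in tamoxifen overload, a rise of 2.48 ± 0.26 (limma adjusted p = 0.000691).

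**Figure D2:**
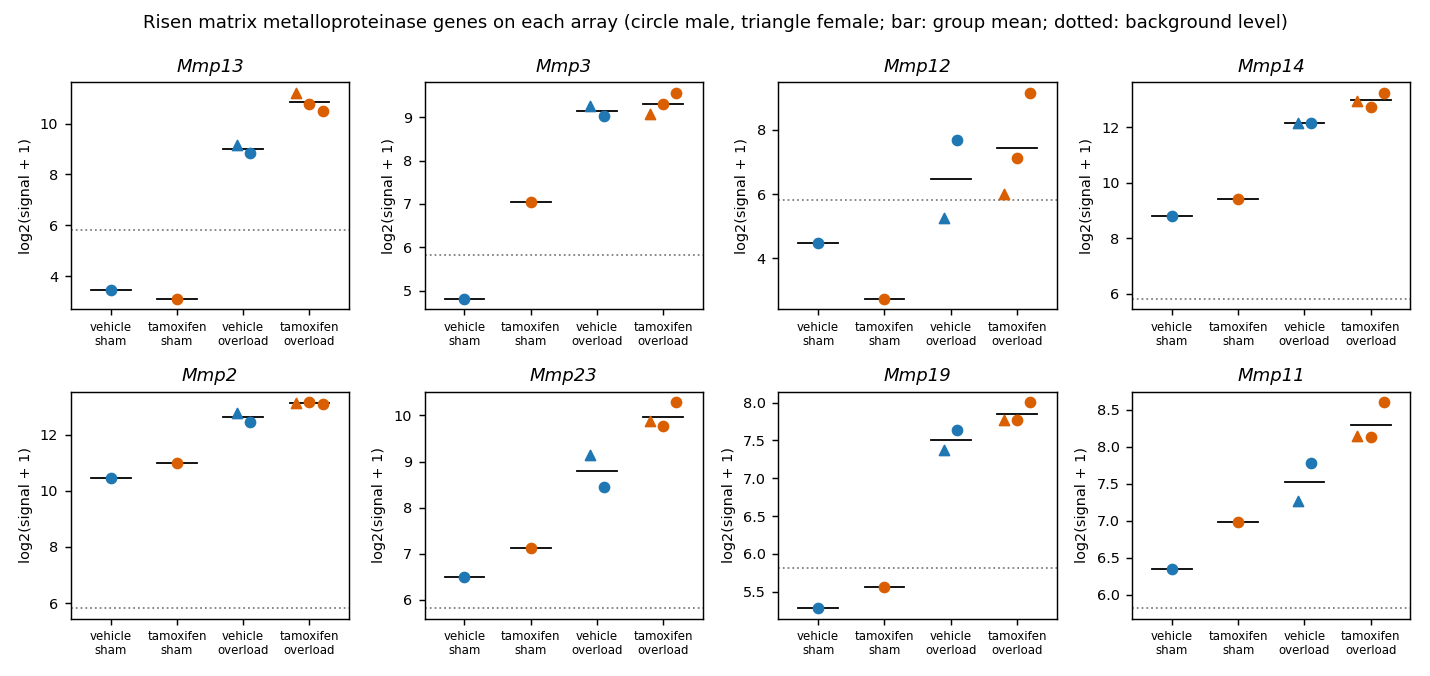
Log2(signal + 1) of the 8 Mmp genes that rose, 1 point per array (circles male, triangles female), by group, with bars at the group means and the background level dotted. Sham arrays lie lowest in every panel, and for Mmp13 the 3 tamoxifen overload arrays (10.51 to 11.22) lie above the 2 vehicle overload arrays (8.83 and 9.16).

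Of the 23 Adam genes 5 rose, and 9 of the 14 above background did not pass. Adam12, a protease of the membrane known from regenerating muscle and from mesenchymal cells, was at 5.01 in vehicle sham and 6.24 in tamoxifen sham. It was at 10.44 and 10.13 in vehicle overload and at 10.75, 11.37 and 11.07 in tamoxifen overload. Every overload array was far above both sham arrays, and the fitted difference was 4.99 ± 0.22 (limma adjusted p = 1.88e-05). Vehicle sham was below background, and with that array set at background the rise was at least 25.0-fold.

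Adam8, which is known from leukocytes, was at 4.59 and 6.5 in sham, 7.44 and 7.99 in vehicle overload, and 8.03, 8.90 and 8.05 in tamoxifen overload. The fitted difference was 2.67 ± 0.33 (limma adjusted p = 0.0013), 3.35 without the tamoxifen sham array and 1.98 without the vehicle sham array. Vehicle sham was below background, and the rise was at least 3.63-fold. Adam19, a sheddase of neuregulin, was at 7.45 and 8.19 in sham, 9.92 and 9.66 in vehicle overload, and 9.75, 9.99 and 10.12 in tamoxifen overload. Its groups were well apart and it rose by 1.94 ± 0.16, or 3.85-fold (limma adjusted p = 0.00029).

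The general sheddases moved less. Adam17, which releases tumour necrosis factor and ligands of the epidermal growth factor receptor, went from 9.46 and 9.66 to between 10.20 and 10.52, a rise of 0.69 ± 0.14 (limma adjusted p = 0.00986). Adam10, which cuts Notch receptors, went from 10.73 and 10.95 to between 11.28 and 11.74, a rise of 0.60 ± 0.15 (limma adjusted p = 0.0211). With each array centred on its median neither passed, nor did they without the tamoxifen sham array or without vehicle overload replicate 2, nor Adam10 without the vehicle sham array. Adam9 stood at 11.68 to 11.84 on all 7 arrays, with a difference of -0.03 ± 0.13 (limma adjusted p = 0.893), and Adam15 at 8.92 to 10.12 (0.37, adjusted p = 0.323). Adam2, Adam3, Adam18, Adam24, Adam32 and Adam34 were among the 9 Adam genes below background on every array.

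**Figure D3:**
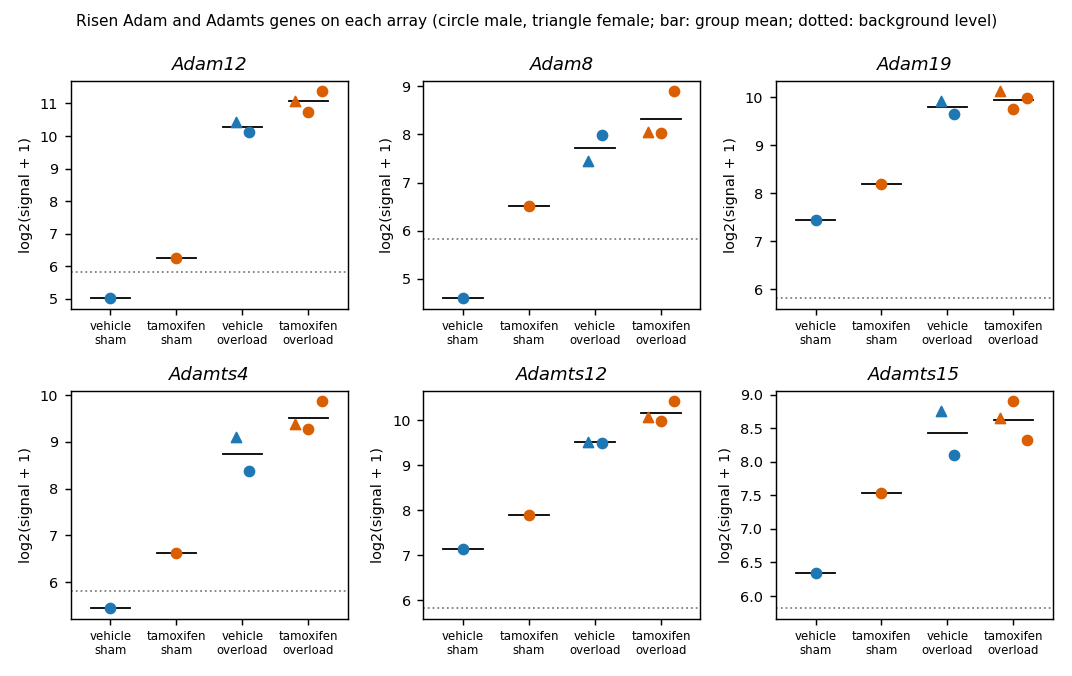
Log2(signal + 1) of Adam12, Adam8, Adam19, Adamts4, Adamts12 and Adamts15, 1 point per array (circles male, triangles female), by group, with bars at the group means and the background level dotted. In each panel all 5 overload arrays lie above both sham arrays, as for Adam12 with sham at 5.01 and 6.24 and overload at 10.13 to 11.37.

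Of the 15 Adamts genes 6 rose. Adamts4, an aggrecanase that cuts aggrecan and versican, was at 5.44 and 6.63 in sham, 9.11 and 8.38 in vehicle overload, and 9.28, 9.87 and 9.38 in tamoxifen overload. The fitted difference was 3.0 ± 0.29 (limma adjusted p = 0.000488), and with vehicle sham below background the rise was at least 7.47-fold. Adamts12, a protease of cartilage matrix proteins, was at 7.15 and 7.88 in sham, 9.53 and 9.49 in vehicle overload, and 9.99, 10.42 and 10.08 in tamoxifen overload. It rose by 2.34 ± 0.19, or 5.08-fold (limma adjusted p = 0.000262), and in Adamts4 and Adamts12 the groups were well apart.

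Adamts15, which cuts versican, went from 6.35 and 7.54 to between 8.09 and 8.90, a rise of 1.46 ± 0.27 (limma adjusted p = 0.00724). It was 0.98 without the vehicle sham array (adjusted p = 0.0901). Further calls were Adamts20 (at least 1.48-fold, with sham below background, adjusted p = 0.0465), the procollagen peptidase Adamts3 (1.11 ± 0.30, adjusted p = 0.0316) and the fibrillin-binding Adamts10 (0.73 ± 0.21, adjusted p = 0.0379). Each of these 3 calls was lost in most of the 16 alternative analyses, among them those without either sham array or without vehicle overload replicate 2. With the mean of its probe sets Adamts3 stood at -0.02 (adjusted p = 0.989), where the other probe set was below background on every array.

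Other aggrecanases were flat or mixed. Adamts5 was at 9.61 to 10.06 on all 7 arrays, with a difference of 0.09 ± 0.15 (limma adjusted p = 0.725). Adamts1 was at 10.09 and 9.48 in sham and 10.78, 9.20, 9.66, 9.97 and 10.63 over vehicle overload replicates 1 and 2 and tamoxifen overload replicates 1, 2 and 3. Both female overload arrays were the highest for Adamts1, and the sign of its difference turned on the sex term, at -0.22 with it (limma adjusted p = 0.508) and 0.25 without it. Adamts9 (1.15, adjusted p = 0.132) missed the threshold with its brightest probe set, and its other 2 passed it at 1.12 and 0.90. Adamts16 stood at -0.58 (adjusted p = 0.324), while its other probe set, at 2.40 and 5.08 in sham and 6.09 to 8.88 in overload, rose at least 2.41-fold (adjusted p = 0.00358), with sham below background.

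The 4 inhibitors moved in both directions. Timp1, the inducible TIMP, was at 6.71 in vehicle sham and 7.29 in tamoxifen sham. It was at 10.73 and 10.45 in vehicle overload and at 11.07, 12.31 and 11.25 in tamoxifen overload. All overload arrays were above sham, and Timp1 rose by 4.12 ± 0.34, or 17.4-fold (limma adjusted p = 0.000285).

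Timp2, which also serves in the activation of MMP2, was at 11.92 and 12.22 in sham, 13.06 and 12.73 in vehicle overload, and 13.29, 13.22 and 13.33 in tamoxifen overload. It rose by 0.94 ± 0.14, or 1.92-fold (limma adjusted p = 0.003). Of its 5 other probe sets above background 4 also passed, with rises from 0.91 to 1.73, and 1 did not (0.35). The rise of 1.73 was that of a probe set as bright as the chosen 1, each with a mean of 12.82.

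Timp4, the TIMP known for its expression in heart and muscle, was at 11.40 in vehicle sham and 10.98 in tamoxifen sham. It was at 10.27 and 8.65 in vehicle overload and at 8.77, 8.01 and 8.53 in tamoxifen overload. Every overload array was below both sham arrays, and it fell by 2.57 ± 0.35 on the log2 scale, or 5.92-fold (limma adjusted p = 0.00191), and by 1.93 without vehicle overload replicate 2. Timp3, which binds to the matrix and inhibits ADAM17 and aggrecanases, was at 11.53 and 11.07 in sham, 11.09 and 10.69 in vehicle overload, and 10.58, 10.55 and 11.11 in tamoxifen overload. Of its 3 other probe sets, all above background, 1 passed (-0.61, limma adjusted p = 0.0193). The other 2 did not, at -0.51 (adjusted p = 0.0612) and -0.39 (adjusted p = 0.135). With its brightest probe set Timp3 fell by 0.68 ± 0.13 (limma adjusted p = 0.00802). However, both female overload arrays lay just above the tamoxifen sham array, so its groups overlapped. Without the sex term the difference was -0.48 and did not pass (adjusted p = 0.0966), nor did it without the vehicle sham array (-0.48) or vehicle overload replicate 2 (-0.75, adjusted p = 0.0624).

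**Figure D4:**
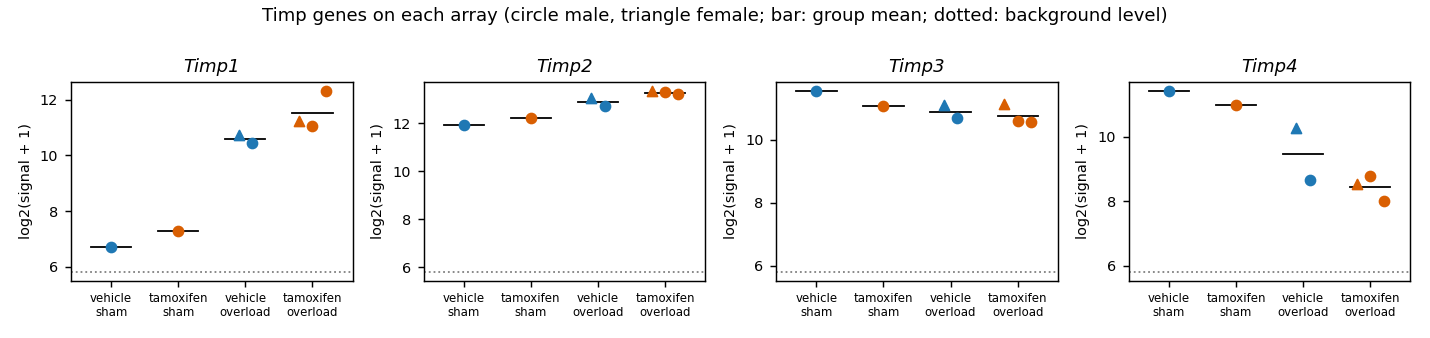
Log2(signal + 1) of the 4 Timp genes, 1 point per array (circles male, triangles female), by group, with bars at the group means. Timp1 and Timp2 are higher on all 5 overload arrays than on the 2 sham arrays, Timp4 is lower on all 5, and the Timp3 groups overlap.

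Within vehicle the overload test has 1 sham array, and within tamoxifen likewise. A single array adds nothing to the measured spread, so these tests and the averaged one use no spread between sham arrays. They rest on the spread between overload arrays after the sex term, with 2 residual degrees of freedom. The intensity trend over all genes weighs more, with 5.95 prior degrees of freedom. With vehicle 14 of the 60 genes rose and 2 fell (6.35% and 2.44% of all genes, 8.79% in either direction), and with tamoxifen 16 rose and 1 fell (9.98% and 4.90%, 14.9% in either direction). Within both treatments 13 of the 60 genes rose and 1, Timp4, fell (21.7% and 1.67%), against 4.84% and 2.00% of all genes. For Mmp14 the differences were 3.35 ± 0.24 with vehicle and 3.56 ± 0.22 with tamoxifen, for Mmp2 they were 2.09 ± 0.20 and 2.09 ± 0.18, and for Timp1 they were 3.94 ± 0.48 and 4.30 ± 0.44.

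Mmp13 and Mmp3 had unlike differences in the 2 treatments. Mmp13 had fitted differences of 5.32 ± 0.31 with vehicle (adjusted p = 0.000196) and 7.58 ± 0.28 with tamoxifen (adjusted p = 3.62e-05), which are rises of at least 9.04-fold and at least 32.4-fold against background. Mmp3 had fitted differences of 4.38 ± 0.32 with vehicle, where sham was below background and the rise was at least 9.98-fold, and of 2.30 ± 0.30, or 4.92-fold, with tamoxifen. The interaction, the difference between these differences, was 2.26 ± 0.40 for Mmp13 (limma adjusted p = 0.697) and -2.08 ± 0.42 for Mmp3 (adjusted p = 0.717), so neither passed, and both rest on sham values below background. No gene of all 18193 passed it, and 4 of the 60 had an unadjusted p under 0.05, as did 5.61% of all genes. Adam25, the next by interaction p (4.43 ± 1.79, adjusted p = 0.842), was at or below background on every array.

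Tamoxifen against vehicle was then compared on the overload arrays. None of the 60 genes, and 0 of 18193, passed the limma test. At an unadjusted p under 0.05 there were 16 of the 60 (26.7%), and 10.6% of all genes. All 3 tamoxifen arrays lay above both vehicle arrays in 19 of the 60 (31.7%), against 16.9% of all genes, and below both in 1, against 12.6%. That gene, Mmp7, was under background. The tamoxifen minus vehicle difference was positive for 47 of the 60 genes (78.3%) and for 52.8% of all genes, and its median was 0.30 over the 60 genes, beside 0.03 over all genes.

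The smallest p-values were those of Mmp13, Mmp14 and Mmp23. Mmp13 was 1.92 ± 0.22 higher with tamoxifen (limma adjusted p = 0.198), Mmp14 0.82 ± 0.17 (adjusted p = 0.378) and Mmp23 1.22 ± 0.26 (adjusted p = 0.378). In 1 of the 16 alternative analyses, that without tamoxifen overload replicate 1, 6 family genes passed: Mmp13, Mmp14, Mmp23, Mmp9, Timp1 and Timp4. In the other 15 the count was 0, as in the comparison above. The share of all genes that passed without that array is not given here, so the 6 genes cannot be set against it. Timp1 stood 0.94 ± 0.34 higher (adjusted p = 0.429) and Timp4 at -0.90 ± 0.35 (adjusted p = 0.441) with all arrays. Adam33, which did not move with overload (0.03), had tamoxifen values of 7.93, 7.80 and 7.99 over vehicle values of 7.02 and 6.82, a difference of 1.02 ± 0.25 (adjusted p = 0.378).

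**Figure D5:**
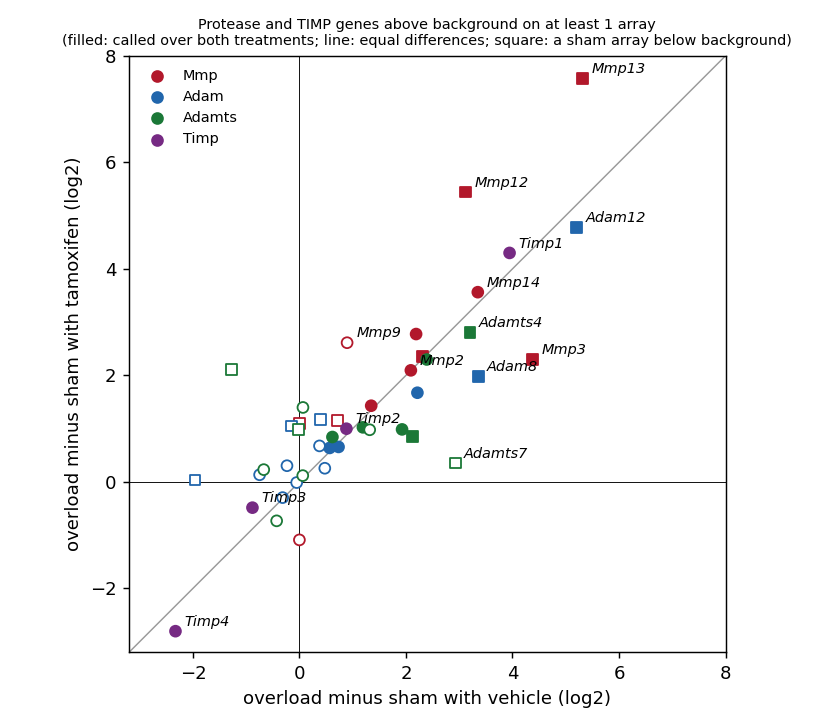
Overload minus sham difference (log2) with tamoxifen against that with vehicle, 1 point for each of the 44 genes above background on at least 1 array, filled where the averaged comparison passed, with the line of equal values and squares for genes with a sham array below background. Mmp13 lies above the line (7.58 against 5.32) and Mmp3 below it (2.30 against 4.38); both are squares, and neither departure passed the interaction test.

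The 2 sham arrays, 1 of each treatment, were compared by size and were not tested against each other. Of the 36 family genes above background on a sham array, 5 had values 2-fold or more higher with tamoxifen, and 5.30% of all such genes did. Adamts15, measured on both arrays, was 2.28-fold higher. The other 4 were below background with vehicle, so only bounds hold: Mmp3 was at least 2.35-fold, Adamts4 at least 1.76-fold, Adam8 at least 1.61-fold and Adam12 at least 1.34-fold higher. Of these 5 only Mmp3 and Adamts15 are thus shown to differ 2-fold. Values 2-fold or more lower were those of Adam21 and Adamts8 (2.33% of all genes), both below background with tamoxifen, at least 1.15-fold and at least 1.82-fold lower.

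The partner and marker lists that follow are short, and their counts stand beside 14.7% of all genes that rose and 8.16% that fell. Among partners, 4 of 12 activators and surface partners of metalloproteinases rose and 1 fell. The proprotein convertase Pcsk5 (2.09), the hyaluronan receptor Cd44 (1.93), the plasminogen activator Plat (1.63) and the tetraspanin Cd9 (0.93) rose, and Bsg, a cell surface inducer of metalloproteinases, fell by 0.77. Furin, which removes the propeptide of MMP14 and of many ADAMs, stood at 0.22 (limma adjusted p = 0.478). Of 9 other inhibitors 3 rose: Tfpi2 (2.89), the membrane-bound Reck (0.77) and A2m, whose mean was below background in both conditions. Of 9 escorts of ADAM10 and ADAM17, Tspan17 (1.06) and Rhbdf1 (0.63) rose and Rhbdf2, which carries ADAM17 to the surface in immune cells, fell by 1.74. For so few genes the escort counts lie near the shares of all genes.

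Of 10 matrix substrates of ADAMTS proteases 7 rose and 0 fell, with a median of 1.52. They included Col5a1 (3.08), the proteoglycan versican, Vcan (2.52), and, with sham below background, Col2a1 (at least 1.55-fold) and Bcan (at least 2.51-fold). Versican went from 7.99 and 8.59 to between 10.24 and 11.37. Of 18 shed growth factors and receptors 5 rose, among them Notch2 (1.36), Cx3cl1 (1.31), Egfr (1.22) and Cxcl16 (0.93). Of 6 astacin proteases Tll1 (at least 2.48-fold) and Bmp1 (0.84), which process procollagens, rose, and of 5 Adamtsl genes 0 rose and Adamtsl4 fell by 0.73. For tamoxifen against vehicle 0 genes of these lists passed.

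Markers of some other cell types moved with overload too, and their part in the protease values was not tested. Of 10 fibroblast markers 8 rose, with a summed signal of 35651 to 45517 in sham and 100875 to 126225 in overload. Of 10 macrophage markers 9 rose, from 5309 to 9403 in sham to 22211 to 35685 in overload, and 3 of 5 tendon markers rose, from 9791 to 10778 to 18818 to 37708. All 5 markers of differentiating muscle rose, while 0 of 8 adult fibre genes passed (303058 to 318285 in sham, 212571 to 272782 in overload). Of 6 satellite cell markers 2 rose, as did 2 of 6 mast cell markers and 2 of 4 cartilage and bone markers. Among 6 endothelial markers 2 fell and among 4 adipocyte markers 3 fell, with 0 risen in either list. Of 4 T cell and 2 Schwann cell markers 0 passed. Macrophage sums were 5309 in vehicle sham, 9403 in tamoxifen sham, 22211 and 22482 in vehicle overload and 25979, 35685 and 32924 in tamoxifen overload. Neutrophil sums, with 2 of 7 markers risen, were 609 in vehicle sham and 1092 in tamoxifen sham. They were 531 and 791 in vehicle overload and 1821, 2927 and 1276 in tamoxifen overload, with replicate 2 the highest. That array was the highest of the overload arrays for 12 of the 21 family genes that rose (57.1%) and for 56.3% of all genes that rose.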

How the data were processed

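The 7 mouse Affymetrix arrays (version 2.0 of their type) were read from the table of intensity values the authors deposited. The submitters' processing notes name Partek; how probes were summarised was not stated there. The 2% trimmed mean is 500 on every array, so no further scaling was applied. Medians were 88.2 in vehicle sham and 99.4 in tamoxifen sham, 105.8 and 108.6 in vehicle overload, and 114.5, 127.7 and 116.2 in tamoxifen overload. They were thus higher with overload than with sham, and with tamoxifen than with vehicle. Array number limits precision. Of 45101 probe sets 34945 carried a single symbol, and 18193 genes were tested by their brightest probe set. Values were taken as log2(value + 1) and fitted in limma 3.58.1 (R 4.3.3) over all 7 arrays with group and sex as terms and eBayes with an intensity trend (2 residual and 5.95 prior degrees of freedom). Calls have a two-sided adjusted p under 0.05, and folds are on the log2(value + 1) scale. Bounds use the mean of the overload group means and set each sham array below background at that level. Genes to name were all Timp genes, the called genes with the largest differences (up to 10 Mmp, 8 Adam and 8 Adamts) and the 3 smallest p-values in each treatment comparison. Most are given by array or by the range of their overload values. Adamts3, Adamts10, Adamts20 and Adam25 are given by fitted differences or bounds only. Other genes with values were chosen after these were seen. The fit was tested on simulated data. The genes and lists were chosen with earlier results of these data known. The alternatives were 9 other settings and 7 analyses that each left out 1 array.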

Additional observations from a re-analysis of the deposited data

How the results depend on the processing

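The averaged overload comparison called 23 of the 60 genes, vehicle 16 and tamoxifen 17. Without the intensity trend these counts were 0, 0 and 0, and without it and the sex term 18, 9 and 11. The other 7 settings gave counts within 1.5 times. Leaving out 1 array gave 16 to 24 (averaged), 11 to 20 (vehicle), 14 to 18 (tamoxifen), 0 to 6 (tamoxifen against vehicle) and 0 to 0 (interaction). With a sham array left out, the averaged value rests on the other treatment. Over all 18193 genes the averaged calls were fewest without the tamoxifen sham array, at 1184 higher and 429 lower. They were most without tamoxifen overload replicate 1, at 2907 higher and 1788 lower. All-gene counts of the other comparisons with an array left out are not given here. Adam12, Adam8, Adam19, Adamts4, Adamts12, Mmp13, Mmp14, Mmp19, Mmp2, Mmp23, Mmp3, Timp1 and Timp2 lost the averaged call under 1 of 16 alternatives, the fit without the trend. Adamts10 lost it in 13, Adamts20 and Adamts3 in 11, Adam10 in 6, Timp3 in 5, Adam17 in 4, Mmp11 and Mmp12 in 3, and Adamts15 and Timp4 in 2. With the mean of all probe sets Adamts16 turned to 1.42 and Adamts3 to -0.0179. With arrays centred on their medians, the median difference over all genes went from 0.07 to -0.22 and that of the 60 genes from 0.54 to 0.25, and calls over all genes from 2678 higher and 1485 lower to 1740 and 2710. Leaving out vehicle overload replicate 2 gave 1428 and 496. For tamoxifen against vehicle, median centring took the median difference of the 60 genes from 0.30 to 0.15. That of all genes went from 0.03 to -0.12. The causes were not tested. No paired analysis was possible because the titles number only 2 male mice, both of the tamoxifen overload group, and the other replicate numbers used here only name arrays.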
